A study of Mus musculus with 8 samples.

Results

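The collagen genes of the mouse were taken from RNA sequencing of primary embryonic fibroblasts, which are cells grown out of dissociated mouse embryos. Every gene whose symbol reads Col, a number, the letter a and a number was included, for example Col1a1. The rule found 44 of the 24972 genes in the table, and all 44 matched a RefSeq gene of the GRCm38.p6 assembly, spread over 15 chromosomes. The rule used names only and no measured value. Cells came from embryos at embryonic day 14, were grown in DMEM with 10% fetal bovine serum, passaged 2 times and left untreated. There were 4 genotypes with 2 libraries each: WT, Tfam+/- (1 working copy of Tfam, the mitochondrial transcription factor that packages mitochondrial DNA), Zbp1-/- (no Zbp1, a sensor of left-handed nucleic acid), and Tfam+/-Zbp1-/-, which carries both. The series compared the genotypes in pairs. The sources used here do not give mouse strain, sex or whether both libraries per genotype were from separate embryos, so p-values measure the spread between these libraries only.

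Collagens are extracellular proteins made of 3 chains wound into a triple helix, and each gene encodes 1 type of chain. Fibrillar collagens form the tensile fibres of skin, tendon, cartilage and bone, FACITs (fibril-associated collagens with interrupted triple helices) sit on those fibres, and type IV collagens form the sheet of basement membranes. Other classes make beaded microfilaments, hexagonal lattices, anchoring fibrils, membrane-spanning chains and the multiplexins of the basement membrane zone. Fibroblasts are the main producers of type I, III and V collagen in connective tissue.

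All values below are the authors' normalized counts, and a library held 16752835 to 18303036 of them in total. The targeted genes were read first. Tfam was at 629 and 610.1 for WT, 278 and 365 for Tfam+/-, 675 and 471 for Zbp1-/-, and 424 and 375 for Tfam+/-Zbp1-/-. Zbp1 was at 7.34 and 3.19 for WT, 64.6 and 69.8 for Tfam+/-, 3.79 and 1.03 for Zbp1-/-, and 0.862 and 2.69 for Tfam+/-Zbp1-/-. It fell by 4.70 on the log2 scale (limma adjusted p = 0.00793) in Tfam+/-Zbp1-/- against Tfam+/-, as that label has it, while Zbp1-/- and WT overlapped at a low level, so Zbp1 does not check the Zbp1-/- label. Tfam+/- replicate 1 and Zbp1-/- replicate 2 stood apart from the other 6 libraries on the first principal component (40.2% of the variance). The 2 libraries of WT, and of Tfam+/-Zbp1-/-, by contrast differed by little more than counting noise. Their median chi-square per gene was 0.572 and 0.568, where counting alone gives 0.455, against 9.10 in Tfam+/- and 8.60 in Zbp1-/-. These figures are approximate, since the normalized counts are not whole reads. A chi-square test still told the libraries of each pair apart. It asks only whether they differ by more than counting noise, so it cannot show that they are separate samples. Each pair was counted as 2 samples because it has 2 titles, and values with each such pair counted as 1 sample are given as well. Fibroblast markers (8 of 8 measured, Pdgfra and Vim among them) summed to between 128007 and 154012 in every library. Vim (59392 to 74720) and Fbn1 (26806 to 35100) made up most of that sum, which can hide other markers that moved. Pdgfra was at 3497 and 3494 for WT, 3442 and 3224 for Tfam+/-, 5590 and 6602 for Zbp1-/-, and 3724 and 4216 for Tfam+/-Zbp1-/-. Thy1 ranged from 6371 to 13108 and Prrx1 from 5684 to 15324.

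Collagen transcripts made up a large and fairly steady share of each library. Their share of the normalized counts was 3.45% and 3.47% for WT, 3.70% and 3.08% for Tfam+/-, 4.09% and 4.78% for Zbp1-/-, and 3.58% and 3.55% for Tfam+/-Zbp1-/-. Both Zbp1-/- libraries lay above the other 6, while the 2 Tfam+/- libraries lay on either side of WT. The 6 most abundant genes, Col1a1, Col1a2, Col12a1, Col3a1, Col5a2 and Col5a1, held 77.2% to 80.3% of all collagen counts. The 11 fibrillar genes held 66.8% to 70.1%, and the 6 type IV genes 6.60% to 11.1%.

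Levels of the 44 genes spanned several orders of magnitude. Mean values over the 8 libraries were above 10000 in 13 genes and above 1000 in 18, lay between 100 and 1000 in 9 and between 10 and 100 in 12. The last 5, Col22a1, Col6a5, Col6a6, Col13a1 and Col17a1, had means of at most 8.48 and were not tested, since tests were made on genes with a mean of at least 10. Per kilobase of exon, Col1a2 and Col1a1 were level with each other at 23653 normalized counts per kilobase each, ahead of Col3a1 at 11769 and Col5a2 at 9335. At the low end of the tested genes, Col4a3, Col9a1, Col4a4 and Col6a4 lay between 1.58 and 2.67 normalized counts per kilobase. Few collagen exons lay under exons of another gene: 13 of the 44 genes shared any exonic base and 7 shared more than 1% of their exonic length, most of all Col9a3 with 7.68% under Tcfl5 on the other strand. The sources used here do not say whether the counting used strand, so such reads cannot be told apart.

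**Figure D1:**
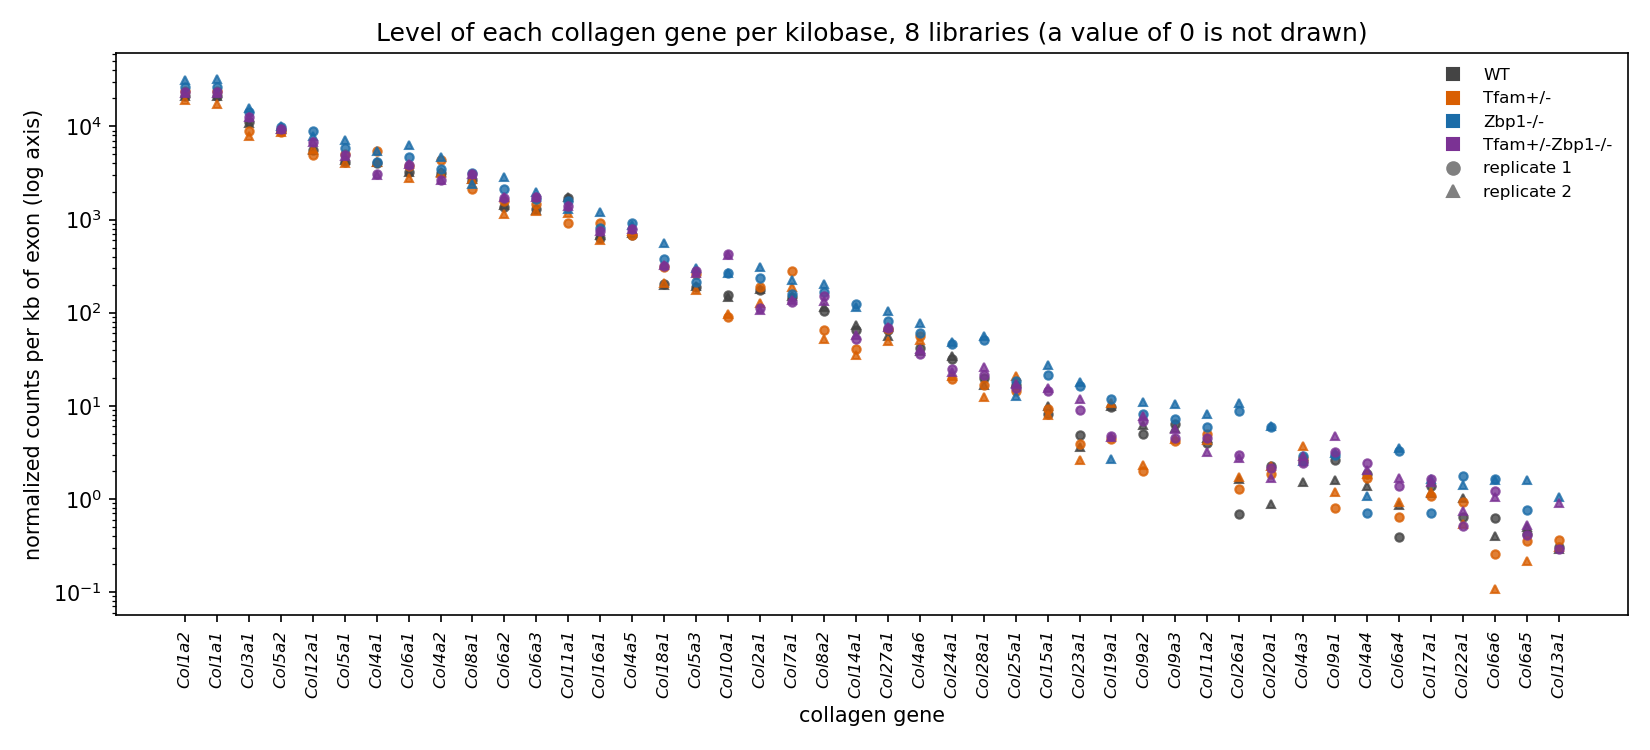
Level of each collagen gene in normalized counts per kilobase of exon (log axis), with 1 point per library, coloured by genotype and shaped by replicate. Genes are ordered by their mean, from Col1a2 and Col1a1 at 23653 down to Col13a1 at 0.436, and a value of 0 is not drawn.

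Most collagen genes were highest in Zbp1-/- fibroblasts. Among the 39 genes tested, Zbp1-/- had the highest mean in 29, against 35.8% of all 13267 genes tested. Both Zbp1-/- libraries lay above all 6 others in 25 of the 39, against 10.9% of all genes tested, among them the main fibrillar genes Col1a1, Col1a2, Col3a1, Col5a1 and Col5a2. Col4a4 was the 1 gene of the 39 with both Zbp1-/- libraries below the other 6, against 2.98% of all genes. At the low end stood Tfam+/-, with the lowest mean in 19 of 39 (37.6% of all genes) and both libraries below the other 6 in 10 (8.5% of all genes): Col3a1, Col5a2, Col11a1, Col24a1, Col9a1, Col9a2, Col9a3, Col14a1, Col8a2 and Col10a1. Cells with both changes lay between: 3 genes had both Tfam+/-Zbp1-/- libraries above the other 6 (Col4a4, Col9a1 and Col10a1, against 14.9% of all genes) and 4 below (Col2a1, Col4a1, Col4a2 and Col7a1, against 4.24%).

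**Figure D2:**
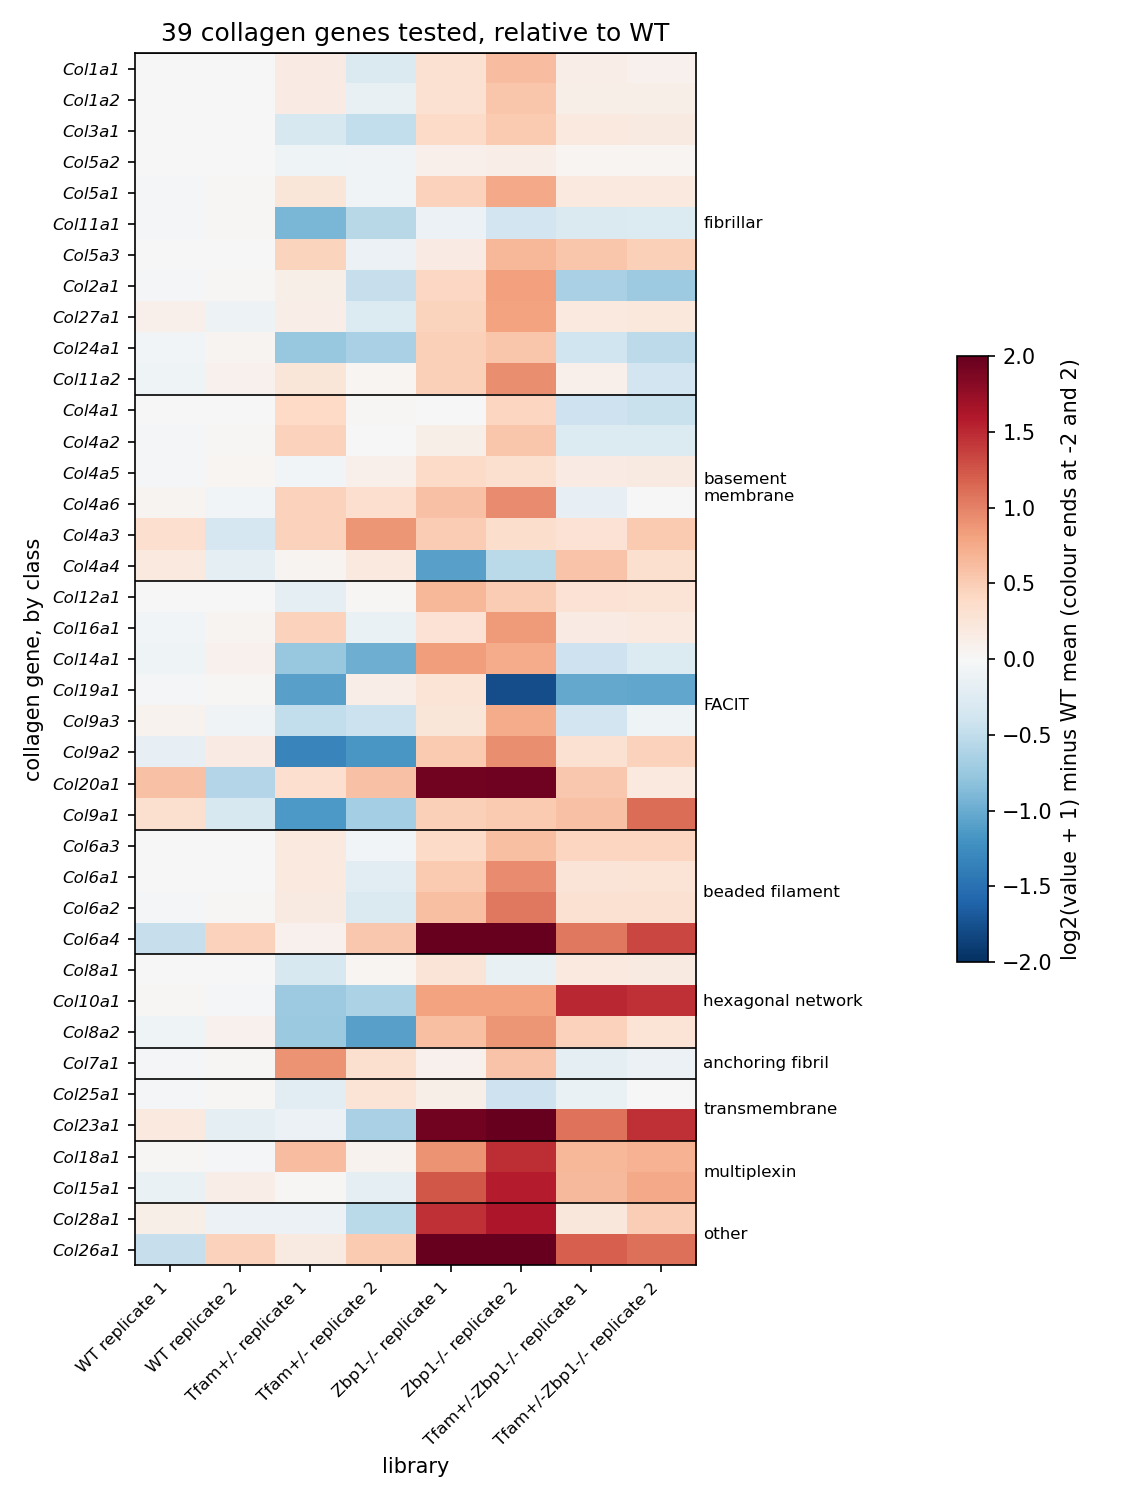
Change of each of the 39 tested collagen genes in each library, as log2(value + 1) minus the WT mean, with genes grouped by class and colours ending at -2 and 2. The 2 Zbp1-/- columns are red for most genes, and blue cells cluster in the 2 Tfam+/- columns.

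The shift shared by the 2 libraries that stood apart ranked with base composition, and collagen transcripts are rich in G and C. The median GC content of the 39 transcripts was 55.2%, against 49.6% over all genes, and 33 of 39 lay above that median. Over 13147 genes the difference between the 2 libraries of a genotype ranked with GC content at a Spearman rho of 0.77 in Tfam+/- (replicate 1 minus 2) and -0.73 in Zbp1-/-, but 0.06 in WT and 0.02 in Tfam+/-Zbp1-/-. Of the 21 collagen genes above 55% GC, 21 were higher in Zbp1-/- replicate 2 than in replicate 1, and 17 were higher in Tfam+/- replicate 1 than in replicate 2. Among the 8 below 50% GC those counts were 2 and 2. Zbp1-/- replicate 1, which did not stand apart, lay above both WT libraries in 37 of 39 collagen genes (61.5% of all genes), and replicate 2 in 34 (54.2%). After a smooth GC trend was subtracted from each library, both Zbp1-/- libraries lay above the other 6 in 23 of 39 (10.9% of all genes), and both Tfam+/- libraries below them in 20 (17.5%). With TMM scaling (the trimmed mean of M-values), the corresponding counts were 23 (7.21%) and 8 (6.27%).

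**Figure D3:**
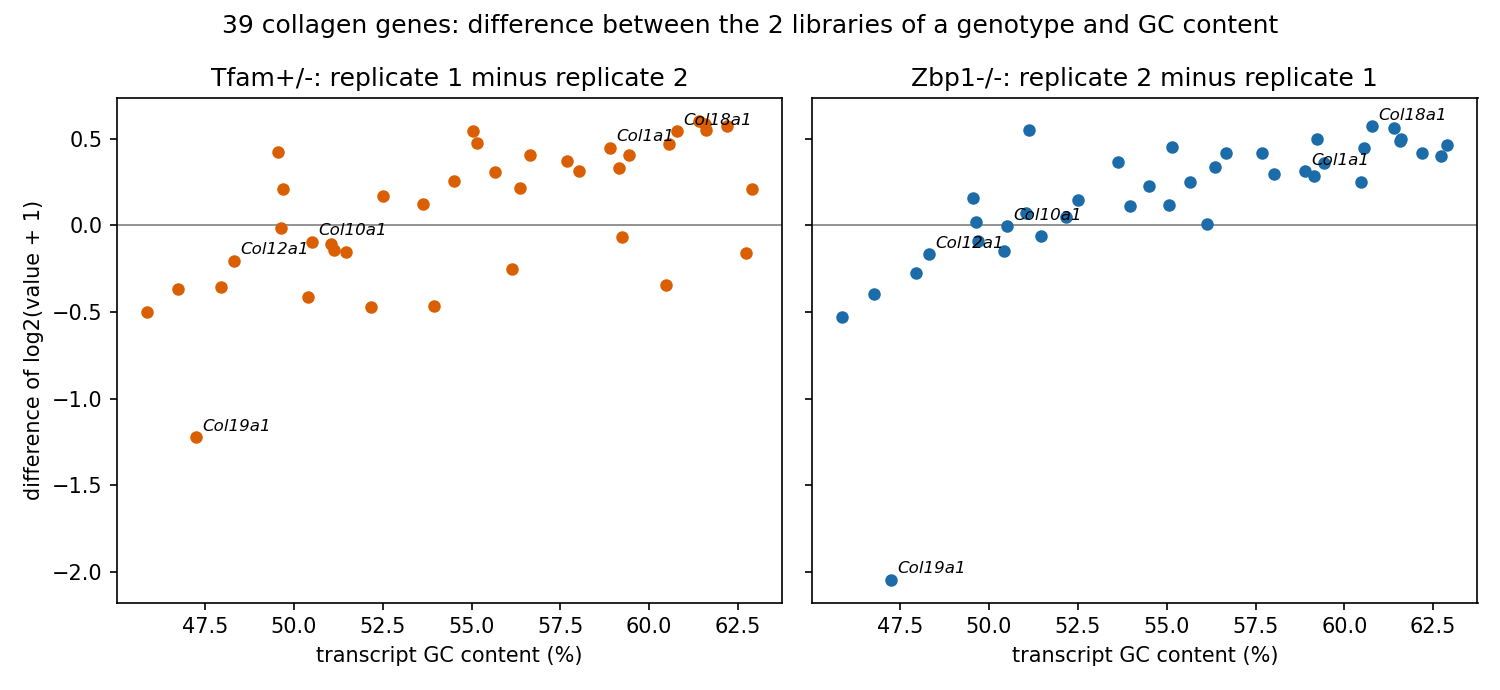
Difference between the 2 libraries of Tfam+/- (left, replicate 1 minus 2) and of Zbp1-/- (right, replicate 2 minus 1) in log2(value + 1), against transcript GC content in percent, with 1 point per tested collagen gene. Points rise with GC content in both panels, and in the right panel all 21 genes above 55% lie above 0.

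Tests used limma across all 13267 genes on log2(value + 1), so a fold change of a weakly expressed gene is understated, and calls were made at an adjusted p (Benjamini-Hochberg) under 0.05. Differences below are on that log2 scale with their standard error. Between Zbp1-/- and WT, 5 of 39 collagen genes were called, all higher in Zbp1-/-: Col26a1, Col23a1, Col28a1, Col15a1 and Col10a1. Over all genes 1.06% were called, 0.897% as higher. The collagen median was 0.57, against 0.11 over all genes, with 35 higher and 4 lower, and in 34 of 39 the Zbp1-/- libraries lay wholly above WT (42.1% of all genes) and in 2, Col11a1 and Col4a4, wholly below (16.8%). TMM scaling moved the median of all genes in this comparison to -0.01 and the collagen median to 0.45. Subtracting the GC trend moved them to 0.07 and 0.31, with 33 collagen genes higher and 6 lower.

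Fewer genes separated Tfam+/- from WT. Col10a1 alone of 39 was called, and it was lower (0.731% of all genes were called, 0.166% as lower). The collagen median was -0.05, against -0.01 over all genes, with 18 higher and 21 lower. Subtracting the GC trend moved these medians to -0.15 and -0.05, with 9 higher and 30 lower. Libraries did not overlap for 5 higher genes (23.3% of all genes) and 10 lower ones (25.5%).

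Tfam+/-Zbp1-/- against WT gave a single call, Col10a1, which was higher (1.38% of all genes called, 0.897% as higher), with a collagen median of 0.20 beside 0.12 over all genes. Against Tfam+/-, 6 of 39 were called, all higher in Tfam+/-Zbp1-/-: Col10a1, Col9a1, Col23a1, Col9a2, Col8a2 and Col3a1 (5.64% of all genes called, 3.32% as higher). The median was 0.28, beside 0.14 over all genes. The Tfam+/-Zbp1-/- libraries lay wholly above WT in 25 of 39 collagen genes (58.8% of all genes) and wholly below in 9 (14.1%). Against Tfam+/- those counts were 25 (42.4%) and 5 (13.5%), and the 5 that lay below were Col2a1, Col4a1, Col4a2, Col4a6 and Col7a1. TMM scaling moved the collagen medians of these 2 comparisons to 0.08 and 0.16, beside 0.00 and 0.03 over all genes. Subtracting the GC trend moved them to 0.17 and 0.38, beside 0.12 and 0.16 over all genes.

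Against Zbp1-/- the same cells were mostly lower. Col14a1 and Col24a1 fell and no collagen gene rose (0.415% of all genes called, 0.309% as lower), and the collagen median was -0.41 while that of all genes was 0.02, with 33 of 39 lower. Subtracting the GC trend moved these medians to -0.25 and 0.05, with 32 of 39 lower. In 29 of 39 the Tfam+/-Zbp1-/- libraries lay wholly below Zbp1-/- (23.3% of all genes), and in 3, Col10a1, Col9a1 and Col4a4, wholly above (26.2%). The interaction, which asks whether losing Zbp1 shifts a gene by a different amount in Tfam+/- than in Tfam wild-type cells, was called for Col10a1 alone, above 0 (0.663% of all genes, 0.219% above 0). These comparisons share libraries, so they are not independent of one another.

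The number of calls depended on how the spread was estimated. A term shared by the 2 libraries that stood apart raised the collagen calls to 17 for Tfam+/- against WT (15.6% of all genes), 29 for Zbp1-/- against WT (35.6%), 27 for Tfam+/-Zbp1-/- against WT (42.5%), 29 against Tfam+/- (45.6%), 27 against Zbp1-/- (23.8%) and 16 for the interaction (16.9%). Leaving both of these libraries out gave 17 (15.4%), 29 (34.3%), 27 (44.8%), 29 (43.6%), 24 (23.4%) and 18 (19.1%). The shared-term fit takes much of its spread from the WT and Tfam+/-Zbp1-/- pairs that were close to counting noise. Without the 2 libraries that stood apart, the spread within genotypes comes from those pairs alone, so these 2 fits are not independent. GC correction gave 8 (2.53%), 13 (5.69%), 9 (6.91%), 24 (20.5%), 12 (4.63%) and 7 (4.06%) in the same order. With each of the 2 close pairs counted as 1 sample, limma called no gene of the whole table in any of the 6, and 6, 13, 2, 6, 9 and 4 of 39 collagen genes had an unadjusted p under 0.05, beside 2.07%, 3.53%, 2.56%, 6.94%, 2.52% and 3.21% of all genes. Leaving out any 1 of the 8 libraries ended the call in Tfam+/- against WT. Without 1 library of WT, Zbp1-/- or Tfam+/-Zbp1-/- no collagen call was left in Zbp1-/- against WT, and without 1 library of Tfam+/- there were 8. Col10a1 in Tfam+/-Zbp1-/- against Tfam+/- was called in all 8 of these fits. GC correction together with the close pairs as 1 sample left 3 collagen calls, Col10a1, Col23a1 and Col8a2 in Tfam+/-Zbp1-/- against Tfam+/- (1.91% of all genes), and the other 5 comparisons had none (0.289% of all genes in Tfam+/- against WT, 0 in the others), with 6 to 14 collagen genes at an unadjusted p under 0.05, beside 4.92% to 7.59% of all genes. Shares over all genes were not worked out for the fits with 1 library left out. Below, a call is one made with all 8 libraries and no shared term unless another fit is named. Where a value after GC correction is given, each close pair counts as 2 samples unless stated.

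**Figure D4:**
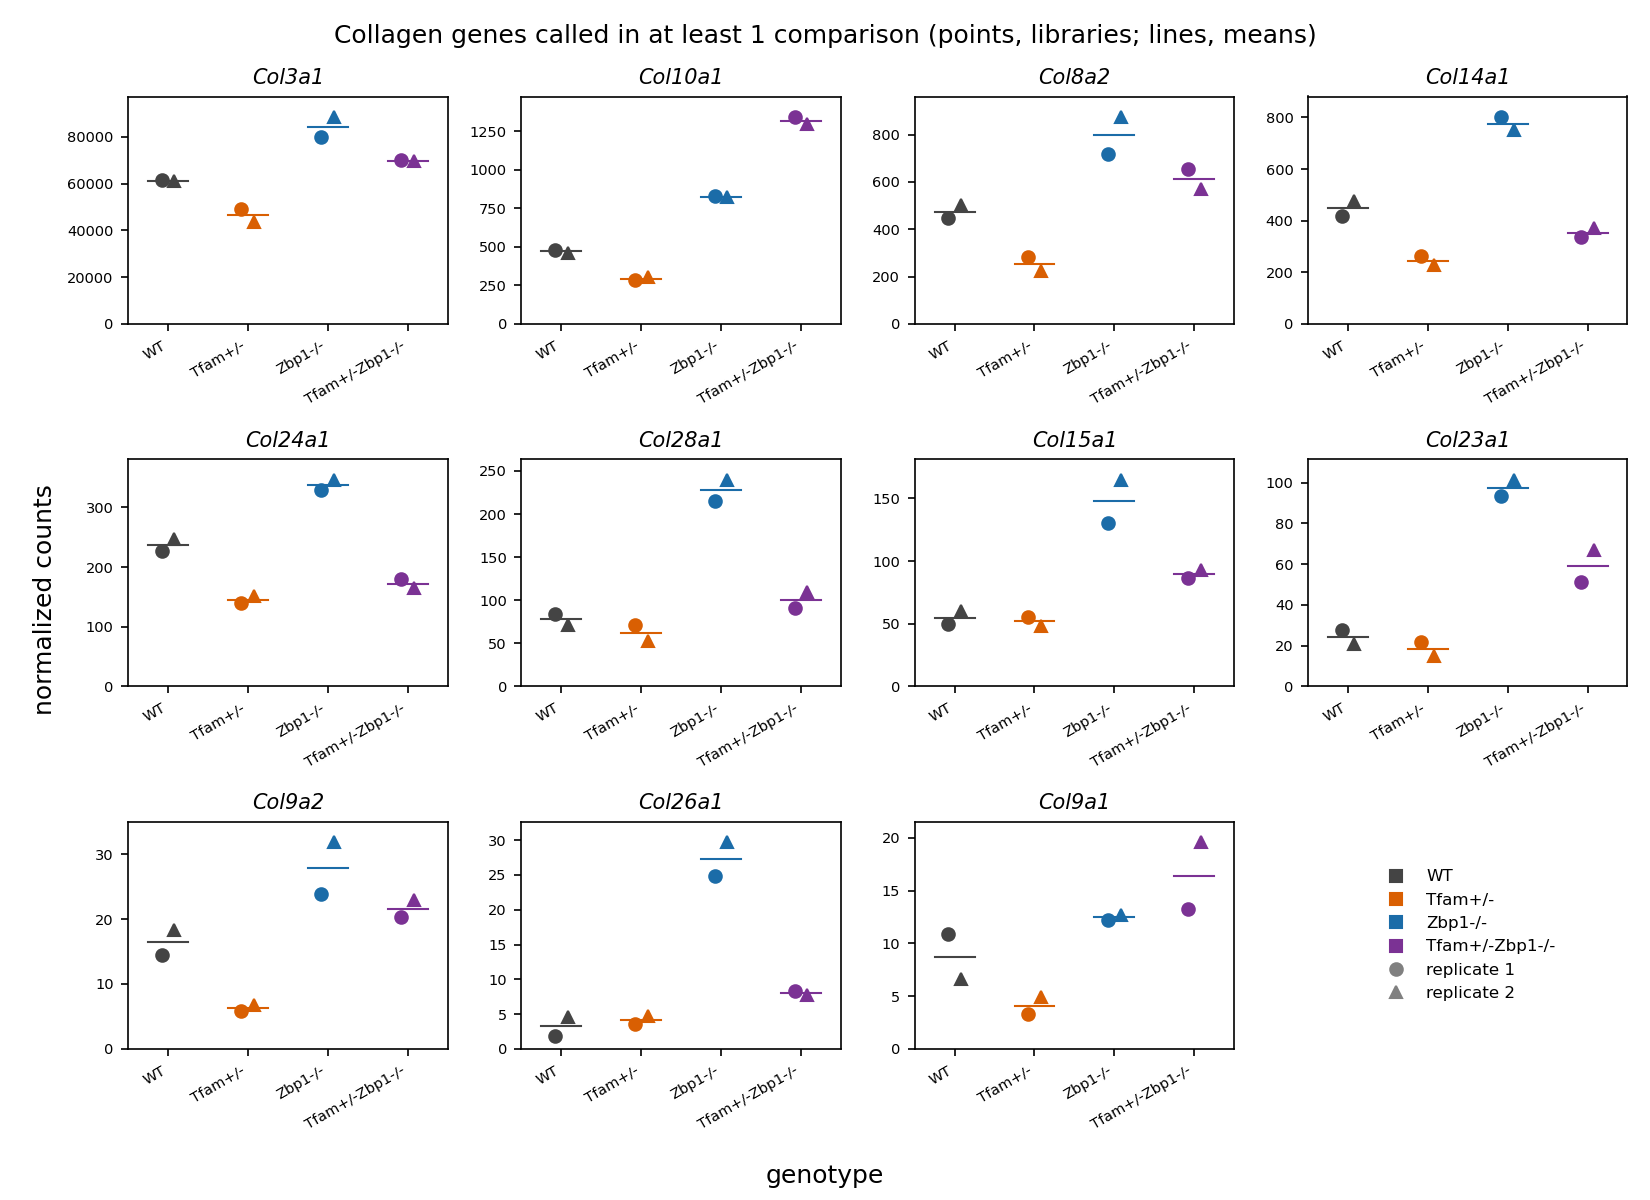
Normalized counts of the 11 collagen genes called in at least 1 comparison, with 1 point per library (circle, replicate 1; triangle, replicate 2) and a line at the mean of each genotype. Zbp1-/- is highest in 9 of the 11 panels; Tfam+/-Zbp1-/- is highest for Col10a1 and Col9a1.

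The gene called most often lay in the hexagonal network class. Col10a1 (chr10:34389981-34397085, GRCm38) encodes type X collagen, a short chain best known from hypertrophic cartilage, and was the 1 gene called in 5 of the 6 comparisons. Its normalized counts were 480.0 and 462 for WT, 284 and 304 for Tfam+/-, 828 and 825 for Zbp1-/-, and 1341 and 1295 for Tfam+/-Zbp1-/-. The 4 genotypes did not overlap, in the order Tfam+/-, WT, Zbp1-/-, Tfam+/-Zbp1-/-, and the spread within each genotype was small beside the steps between them. Col10a1 fell by 0.68 ± 0.10 (adjusted p = 0.0459) in Tfam+/- against WT. It rose by 0.81 ± 0.10 (adjusted p = 0.0246) in Zbp1-/- and by 1.48 ± 0.10 (adjusted p = 0.00424) in Tfam+/-Zbp1-/-, both against WT. Between Tfam+/-Zbp1-/- and Tfam+/- the difference was 2.16 ± 0.10 (adjusted p = 7.11e-04), and the interaction was 1.35 ± 0.14 (adjusted p = 0.0204). Losing Zbp1 thus went with a larger rise in Tfam+/- cells than in Tfam wild-type cells. With the close pairs counted as 1 sample no Col10a1 call was left (adjusted p = 0.258 for Tfam+/-Zbp1-/- against Tfam+/-, or 0.022 after GC correction as well).

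Promoter windows of Col10a1, Col8a2 and Col3a1 are shown because these genes differed between Tfam+/-Zbp1-/- and Tfam+/- with the smallest adjusted p of the network class and of the fibrillar class. Each is the 250 bases before the RefSeq start on the plus strand of GRCm38.p6, 5′ to 3′, with TATAAA in capitals where it occurs: chr10:34389731-34389980 for Col10a1, chr4:126286544-126286793 for Col8a2 and chr1:45311288-45311537 for Col3a1.
Col10a1: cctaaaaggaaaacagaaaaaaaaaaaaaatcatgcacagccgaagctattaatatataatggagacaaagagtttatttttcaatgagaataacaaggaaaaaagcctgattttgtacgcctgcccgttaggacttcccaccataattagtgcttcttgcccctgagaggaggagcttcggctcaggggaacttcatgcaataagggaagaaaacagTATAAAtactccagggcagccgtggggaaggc
Col8a2: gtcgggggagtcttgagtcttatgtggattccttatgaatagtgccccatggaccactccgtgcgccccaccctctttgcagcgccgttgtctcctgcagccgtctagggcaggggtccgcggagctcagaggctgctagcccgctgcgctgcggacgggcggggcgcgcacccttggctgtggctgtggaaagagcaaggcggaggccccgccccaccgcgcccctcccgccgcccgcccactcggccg
Col3a1: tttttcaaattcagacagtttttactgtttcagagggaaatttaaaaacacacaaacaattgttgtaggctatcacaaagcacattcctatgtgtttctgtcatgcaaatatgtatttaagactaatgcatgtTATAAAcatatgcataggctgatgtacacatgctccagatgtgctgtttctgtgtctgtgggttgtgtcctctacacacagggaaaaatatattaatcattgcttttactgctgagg
TATAAA began 32 bases before the start in Col10a1 and 117 bases before it in Col3a1, and was not in the Col8a2 window, whose GC content was 70% against 41.6% in Col10a1 and 35.2% in Col3a1. Searched on both strands, TATAAA was in 12.4% of 32851 promoters of the RefSeq table and in 5 of 38 collagen promoters (35 genes matched). CCAAT was in 33.8% of all and 13 of 38, TGTGGT (the RUNX motif) in 14.0% and 3, and TGANTCA (AP-1) in 6.75% and 1. These are matches of letters and say nothing of binding.

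Type VIII collagen, of the same class, forms lattices in the cornea's Descemet membrane and in vessel walls. Col8a2 was at 447 and 501 for WT, 281 and 223 for Tfam+/-, 718 and 873 for Zbp1-/-, and 652 and 572 for Tfam+/-Zbp1-/-. Both Tfam+/- libraries were below, and both Zbp1-/- libraries above, all others. The Tfam+/-Zbp1-/- libraries exceeded Tfam+/- by 1.28 ± 0.17 (adjusted p = 0.0084). In the other comparisons Col8a2 was not called: -0.91 in Tfam+/- against WT (adjusted p = 0.0961) and 0.74 in Zbp1-/- against WT (adjusted p = 0.108). Its partner Col8a1 was far more abundant and flatter, at 13574 and 13790.5 for WT, 10903 and 14065 for Tfam+/-, 16274 and 12387 for Zbp1-/-, and 15670.3 and 15561 for Tfam+/-Zbp1-/-, and was called in none. Per kilobase, Col8a1 exceeded Col8a2 by 12.0 to 53.4 times, with the highest ratios in Tfam+/-.

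Among the fibrillar genes the 2 chains of type I collagen led. Col1a1 was at 126351 and 126567 for WT, 141818 and 103969 for Tfam+/-, 156157 and 193671 for Zbp1-/-, and 138770.0 and 134787 for Tfam+/-Zbp1-/-. Col1a2, which joins Col1a1 in the same triple helix, was at 114695 and 112969 for WT, 127143 and 102805 for Tfam+/-, 140381 and 167117 for Zbp1-/-, and 123971 and 122902 for Tfam+/-Zbp1-/-. Both were highest in Zbp1-/-, with differences of 0.46 and 0.43 against WT that were not called (adjusted p = 0.212 and 0.171); the 2 Tfam+/- libraries straddled WT. The ratio of Col1a1 to Col1a2 per kilobase stayed between 0.912 and 1.05 over the 8 libraries.

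Col3a1, which encodes the type III collagen that mixes with type I in skin and vessels, separated the genotypes more cleanly. It was at 61449.6 and 61136 for WT, 49249 and 43766 for Tfam+/-, 80026 and 88481 for Zbp1-/-, and 69949.6 and 69794 for Tfam+/-Zbp1-/-. No genotypes overlapped, and the order was Tfam+/-, WT, Tfam+/-Zbp1-/-, Zbp1-/-. Col3a1 was higher by 0.59 ± 0.10 (adjusted p = 0.0178) in Tfam+/-Zbp1-/- than in Tfam+/-, a call that was lost with the close pairs as 1 sample (adjusted p = 0.588). Relative to Col1a1 per kilobase it ranged from 0.370 and 0.449 in Tfam+/- to between 0.487 and 0.552 in the other genotypes.

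Col24a1, a fibrillar chain described in developing bone and cornea, was at 227 and 246 for WT, 139.9 and 151 for Tfam+/-, 329.9 and 347 for Zbp1-/-, and 179 and 164 for Tfam+/-Zbp1-/-. Its Zbp1-/- libraries were the highest and its Tfam+/- libraries the lowest, with no overlap. It fell by 0.97 ± 0.13 (adjusted p = 0.0453) in Tfam+/-Zbp1-/- against Zbp1-/-. Col2a1, the main collagen of cartilage, was at 884 and 913 for WT, 971 and 654 for Tfam+/-, 1193 and 1591 for Zbp1-/-, and 572 and 544 for Tfam+/-Zbp1-/-. It was lowest in Tfam+/-Zbp1-/- and highest in Zbp1-/-, and the difference between these 2 genotypes, -1.30, was not called without (adjusted p = 0.0801) but was called with GC correction (-1.06 ± 0.07 (adjusted p = 0.00153)). The remaining 6 fibrillar genes, Col5a1, Col5a2, Col5a3, Col11a1, Col11a2 and Col27a1, were called in none of the 6 comparisons with all 8 libraries and no shared term. No fibrillar gene was called with GC correction and the close pairs as 1 sample. The shared term called 3 to 5 of these 6 per comparison, beside 15.6% to 45.6% of all genes. GC correction called 0 to 4, beside 2.53% to 20.5% of all genes. Their highest library exceeded the lowest by 1.16 times (Col5a2) to 2.55 times (Col11a2). Col11a1, a chain that sets fibril diameter, went against the trend of the class: it was highest in WT, at 12914 and 13353, and lowest in Tfam+/-, at 6991 and 8934.

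Col4a1 and Col4a2 encode the common type IV chains of basement membranes. Col4a1 was at 26995 and 27204 for WT, 35785 and 27679.8 for Tfam+/-, 27234 and 36376 for Zbp1-/-, and 20255 and 19975 for Tfam+/-Zbp1-/-. Its partner Col4a2, transcribed from the opposite strand of the same locus, was at 20373 and 20844 for WT, 28372 and 20504 for Tfam+/-, 22279.7 and 30340.1 for Zbp1-/-, and 17043 and 17099.5 for Tfam+/-Zbp1-/-. Tfam+/-Zbp1-/- was lowest for both, below all 6 other libraries, while the 2 shifted libraries, Tfam+/- replicate 1 and Zbp1-/- replicate 2, were the highest. In Tfam+/-Zbp1-/- against Tfam+/- the differences were -0.65 and -0.50 and were not called (adjusted p = 0.083 and 0.207). After GC correction they were -0.47 ± 0.06 (adjusted p = 0.00179) and -0.36 ± 0.05 (adjusted p = 0.00442), and both fell against WT as well, by 0.49 (adjusted p = 0.00429) and 0.36 (adjusted p = 0.00975). With the close pairs also counted as 1 sample, no type IV gene was called after GC correction in any comparison. Col4a1 and Col4a2 kept a ratio of 1.14 to 1.32 per kilobase in all libraries, and their exons share 22 bases.

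The 4 minor type IV chains were called in none of the 6 comparisons with all 8 libraries and no shared term. With the shared term 0 to 3 of them were called per comparison, beside 15.6% to 45.6% of all genes. With GC correction 0 to 2 were called, beside 2.53% to 20.5% of all genes. Col4a4, a chain of the kidney's glomerular membrane, was at 18.6 and 14.0 for WT, 16.8 and 18.6 for Tfam+/-, 7.08 and 10.8 for Zbp1-/-, and 24.4 and 20.4 for Tfam+/-Zbp1-/-. Zbp1-/- was lowest and Tfam+/-Zbp1-/- highest, a difference of 1.25 (adjusted p = 0.179; 0.0488 after GC correction). Col4a3, its neighbour on chromosome 1, was at 21.7 and 13.1 for WT, 23.8 and 32.0 for Tfam+/-, 24.4 and 22.0 for Zbp1-/-, and 20.9 and 24.7 for Tfam+/-Zbp1-/-. Both its Tfam+/- and its Zbp1-/- libraries lay above WT and overlapped each other's and Tfam+/-Zbp1-/- values. Col4a5 and Col4a6, neighbours on the X chromosome, ranged from 4438 to 5987 and from 239 to 516, with the lowest Col4a6 values in Tfam+/-Zbp1-/- replicate 1 and WT replicate 2. Col4a6 was 0.76 higher in Zbp1-/- than in WT (adjusted p = 0.0837).

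**Figure D5:**
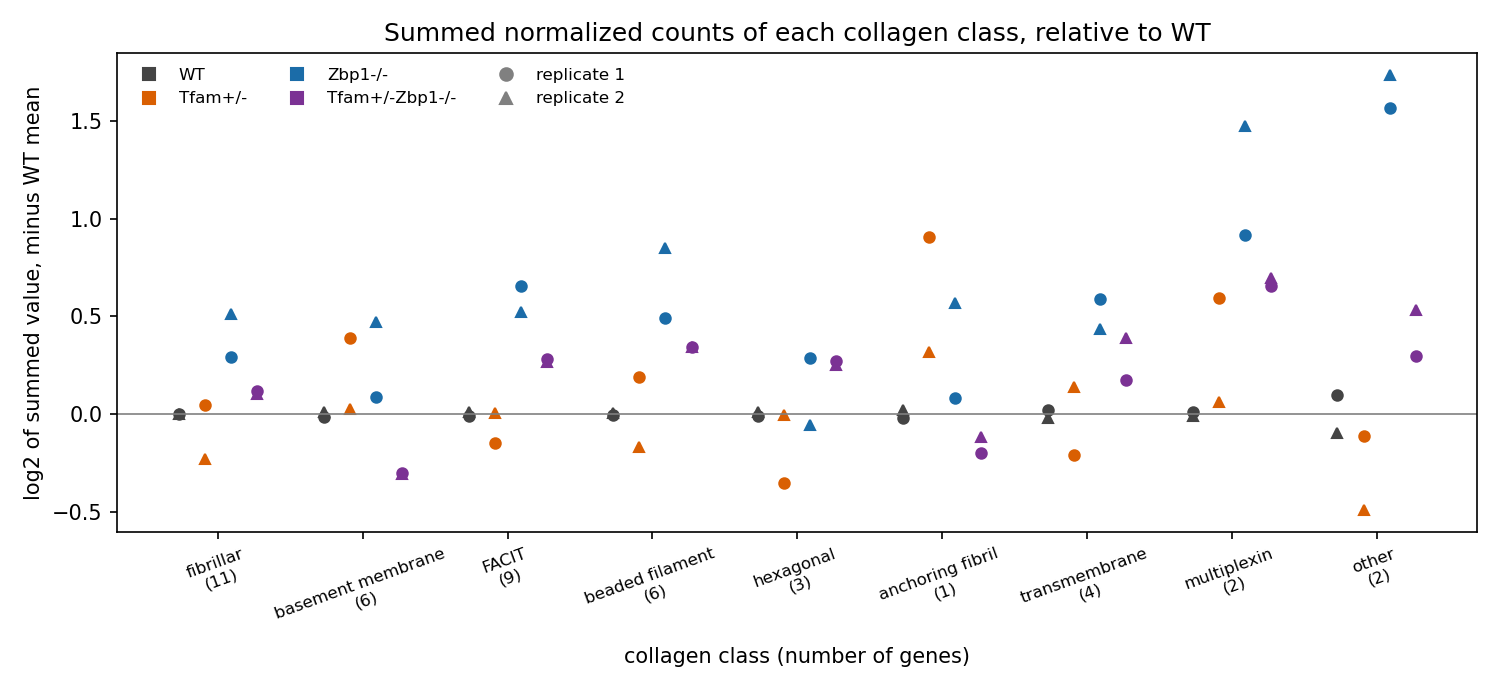
Summed normalized counts of each collagen class in each library, as log2 of the sum minus the WT mean, with the number of genes in brackets. The 6 type IV genes sum to 42573 and 42721 in Tfam+/-Zbp1-/-, below all other libraries, while the fibrillar, FACIT, beaded filament and multiplexin sums are highest in Zbp1-/-.

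Within the FACITs, Col12a1, which bridges type I fibrils, was by far the most abundant. It was at 67606 and 68391 for WT, 59837 and 68911 for Tfam+/-, 108097 and 96277 for Zbp1-/-, and 83176 and 82243 for Tfam+/-Zbp1-/-. Zbp1-/- lay above all others, by 0.59 over WT (adjusted p = 0.0624, or 0.00956 after GC correction). With the close pairs also counted as 1 sample, no FACIT was called after GC correction. Col16a1, next in abundance, was at 3337 and 3571 for WT, 4769 and 3143 for Tfam+/-, 4226 and 6225 for Zbp1-/-, and 3888 and 3940.5 for Tfam+/-Zbp1-/-, and its 2 Tfam+/- libraries lay on either side of WT. Col14a1, a FACIT of tendon and skin, was at 419.9 and 476 for WT, 263 and 227 for Tfam+/-, 801 and 751 for Zbp1-/-, and 335 and 370.1 for Tfam+/-Zbp1-/-. No genotypes overlapped, and Zbp1-/- stood highest. It fell by 1.14 ± 0.13 (adjusted p = 0.0386) in Tfam+/-Zbp1-/- against Zbp1-/-.

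Type IX collagen, which coats the type II fibrils of cartilage, was scarce. Col9a2 was at 14.4 and 18.4 for WT, 5.90 and 6.72 for Tfam+/-, 23.9 and 31.9 for Zbp1-/-, and 20.3 and 22.9 for Tfam+/-Zbp1-/-. Col9a1 was at 10.9 and 6.59 for WT, 3.28 and 4.93 for Tfam+/-, 12.3 and 12.7 for Zbp1-/-, and 13.2 and 19.6 for Tfam+/-Zbp1-/-. For both genes the 2 Tfam+/- libraries were the lowest of the 8, and Tfam+/-Zbp1-/- exceeded Tfam+/- by 1.63 ± 0.28 (adjusted p = 0.0222) for Col9a2 and by 1.77 ± 0.39 (adjusted p = 0.0497) for Col9a1. The Col9a1 call sat at the threshold. Col9a3 ranged from 12.8 in Tfam+/- replicate 1 to 31.5 in Zbp1-/- replicate 2 and was not called.

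Col20a1 and Col19a1 complete the FACITs that were tested. Col20a1 was at 11.5 and 4.56 for WT, 9.52 and 11.6 for Tfam+/-, 30.8 and 30.9 for Zbp1-/-, and 11.1 and 8.58 for Tfam+/-Zbp1-/-. It was higher by 1.94 in Zbp1-/- than in WT, with no overlap, but was not called (adjusted p = 0.0995). Col19a1 was at 42.7 and 43.7 for WT, 19.7 and 47.3 for Tfam+/-, 52.3 and 11.9 for Zbp1-/-, and 20.8 and 20.6 for Tfam+/-Zbp1-/-. Its low values in Tfam+/- replicate 1 and Zbp1-/- replicate 2 were those of the 2 shifted libraries, and its GC content of 47.3% was below the median. In Tfam+/-Zbp1-/- it was lower than in WT by 1.03 on the log2 scale (adjusted p = 0.608).

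The beaded filaments are made of type VI collagen, in which Col6a1 and Col6a2 join Col6a3 or a rarer chain. Col6a3 was at 14057 and 13883 for WT, 15977 and 13411 for Tfam+/-, 18179.6 and 21294 for Zbp1-/-, and 18876 and 18784 for Tfam+/-Zbp1-/-. Col6a1 was at 13225 and 13360.1 for WT, 15222 and 11477 for Tfam+/-, 19163 and 25625 for Zbp1-/-, and 15969 and 16099.8 for Tfam+/-Zbp1-/-. Both had their lowest library in Tfam+/- replicate 2, and neither was called; in Zbp1-/- against WT the differences were 0.49 and 0.74 (adjusted p = 0.124 and 0.123). After GC correction Col6a1 was called in that comparison at 0.47 ± 0.05 (adjusted p = 0.00442) and Col6a2 at 0.59 ± 0.06 (adjusted p = 0.00343). Neither of these 2 was called with the close pairs also counted as 1 sample. The ratio of Col6a1 to Col6a2 per kilobase held between 2.16 and 2.45. Of the rarer chains, Col6a4 was at 2.89 and 6.39 for WT, 4.67 and 6.82 for Tfam+/-, 23.9 and 25.9 for Zbp1-/-, and 10.2 and 12.5 for Tfam+/-Zbp1-/-. It rose to its highest in both Zbp1-/- libraries, 2.27 over WT, without a call (adjusted p = 0.0641). Col6a5 and Col6a6, below the level for testing, had their highest values in Zbp1-/- as well, at 7.09 and 14.8 for Col6a5 and 14.9 and 14.6 for Col6a6.

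Most of the genes called in Zbp1-/- against WT came from the small remaining classes. Col26a1, a secreted collagen described in gonads, was at 1.92 and 4.58 for WT, 3.56 and 4.80 for Tfam+/-, 24.8 and 29.7 for Zbp1-/-, and 8.27 and 7.68 for Tfam+/-Zbp1-/-. It rose in Zbp1-/- by 2.80 ± 0.42 (adjusted p = 0.0384), the largest of the 16 collagen calls at a pseudocount of 1. At a pseudocount of 5 its change was 1.98, below the 2.15 of Col10a1 in Tfam+/-Zbp1-/- against Tfam+/-. Col28a1, a collagen of peripheral nerve, was at 84.6 and 71.0 for WT, 71.1 and 52.7 for Tfam+/-, 215 and 239.9 for Zbp1-/-, and 91.0 and 109 for Tfam+/-Zbp1-/-. Zbp1-/- stood above all others, by 1.54 ± 0.20 (adjusted p = 0.0294) over WT.

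Both multiplexins were highest in Zbp1-/- and next highest in Tfam+/-Zbp1-/-. Col15a1 was at 49.5 and 60.3 for WT, 55.8 and 47.8 for Tfam+/-, 131 and 165 for Zbp1-/-, and 86.3 and 93.2 for Tfam+/-Zbp1-/-. It was 1.41 ± 0.19 (adjusted p = 0.0324) higher in Zbp1-/- than in WT. Col18a1, whose C-terminal fragment is endostatin, was at 1379.6 and 1348 for WT, 2087 and 1431 for Tfam+/-, 2545 and 3778 for Zbp1-/-, and 2152 and 2209 for Tfam+/-Zbp1-/-. It was higher by 1.18 in Zbp1-/- than in WT, with replicate 2 well above replicate 1. It was called with GC correction (0.85 ± 0.07 (adjusted p = 0.00126)) and not without (adjusted p = 0.0759). With GC correction and the close pairs as 1 sample it was not called (adjusted p = 0.198).

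Among the chains that span the cell membrane, Col23a1 was at 27.5 and 20.7 for WT, 22.0 and 14.8 for Tfam+/-, 93.4 and 102 for Zbp1-/-, and 51.5 and 67.1 for Tfam+/-Zbp1-/-. It rose by 1.99 ± 0.27 (adjusted p = 0.0324) in Zbp1-/- against WT and by 1.65 ± 0.27 (adjusted p = 0.0189) in Tfam+/-Zbp1-/- against Tfam+/-. So the difference that went with loss of Zbp1 had the same sign in both Tfam backgrounds, and the interaction of -0.34 was not called (adjusted p = 0.571). Col25a1, a neuronal chain, was at 116 and 119.9 for WT, 101 and 143 for Tfam+/-, 128 and 88.8 for Zbp1-/-, and 108 and 118 for Tfam+/-Zbp1-/-, with no separation of genotypes. The anchoring fibril gene Col7a1, which ties epithelial basement membrane to the tissue beneath, was at 1368 and 1404 for WT, 2594 and 1728 for Tfam+/-, 1468 and 2058 for Zbp1-/-, and 1206 and 1276 for Tfam+/-Zbp1-/-. It was highest in Tfam+/- replicate 1 and lowest in Tfam+/-Zbp1-/-, -0.77 against Tfam+/- (adjusted p = 0.113, or 8.98e-04 after GC correction). With the close pairs also counted as 1 sample, Col7a1 was not called after GC correction.

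Markers of other cell types moved with some of these genes. Schwann and neural crest markers (6 genes, 5 tested) summed to 606 and 696 in Zbp1-/-, against 273 and 323 for WT, 253 and 282 for Tfam+/-, and 188 and 224 for Tfam+/-Zbp1-/-. Ngfr, Sox10 and Erbb3 were all highest in Zbp1-/-, where Col28a1, Col20a1 and Col14a1 were also highest. Chondrocyte markers (8 genes, 5 tested) summed to 432 and 458 for WT, 249 and 343 for Tfam+/-, 572 and 462 for Zbp1-/-, and 570 and 616 for Tfam+/-Zbp1-/-; Matn1 was listed at 0 in all libraries and Snorc in 7 of 8. Of these, Comp was lowest in Tfam+/- (15.5 and 8.64) and highest in Tfam+/-Zbp1-/- (114 and 96.1), as Col10a1 was. Acan was lowest in Tfam+/- too (18.9 and 19.4) but highest in Zbp1-/- (40.8 and 58.0), and Sox9 had its highest value in Zbp1-/- replicate 1 (380.0). Epithelial markers summed to 273 and 294 for WT, 505 and 333 for Tfam+/-, 324 and 409 for Zbp1-/-, and 199.9 and 199 for Tfam+/-Zbp1-/-. As for Col7a1, this sum was lowest in Tfam+/-Zbp1-/- and highest in the 2 shifted libraries, so Tfam+/- and Zbp1-/- overlapped. Of its members, Krt18 alone had both Tfam+/-Zbp1-/- libraries lowest (57.0 and 61.0). Krt14 in Tfam+/-Zbp1-/- (67.8 and 47.5) overlapped WT (33.4 and 48.1), and Lama3 was highest in Zbp1-/- (32.9 and 29.2). Epcam and Cdh1 were at 6.34 or less everywhere. Leukocyte markers summed to 4192 to 5248 in WT and Tfam+/- and to 2123 to 2635 in the 2 genotypes lacking Zbp1. Smooth muscle and myofibroblast markers summed to 92508.5 to 114291 and to 68368 to 87055 in the same groups. Acta2 and Tagln made up most of that sum. Acta2 and Cnn1 were lower in every library lacking Zbp1 than in WT and Tfam+/-, but the other members overlapped. In Zbp1-/- replicate 2, Tagln (31184), Myh11 (940) and Smtn (1647) lay above both WT libraries, and Smtn was lowest in Tfam+/- replicate 2 (1157). The part of any of these cell types in the collagen differences was not tested, and in bulk RNA fewer cells of a type cannot be told apart from less RNA per cell.

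Collagen chains are hydroxylated, folded, exported, trimmed, crosslinked and bound by partners and receptors, and 59 genes for these steps were read beside them (55 tested). In Zbp1-/- against WT 1 gene rose and 1 fell (1.06% of all genes were called). Prelp, a leucine-rich proteoglycan that anchors fibrils to basement membrane, was at 239.5 and 232 for WT, 211 and 203 for Tfam+/-, 786 and 897 for Zbp1-/-, and 471 and 414 for Tfam+/-Zbp1-/-, and rose by 1.83 ± 0.13 (adjusted p = 0.00757). Tll1, a protease that trims procollagen, was at 1765 and 1794 for WT, 1780.2 and 2102 for Tfam+/-, 896 and 724 for Zbp1-/-, and 882 and 937 for Tfam+/-Zbp1-/-, and changed by -1.14 ± 0.14 (adjusted p = 0.0239). Thus both genotypes without Zbp1 had low Tll1.

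In Tfam+/-Zbp1-/- against Tfam+/-, 4 of the 55 rose and 2 fell (5.64% of all genes were called). Adamts3, which removes the N-propeptide of procollagen, was at 72.2 and 77.4 for WT, 39.2 and 52.6 for Tfam+/-, 110.4 and 121 for Zbp1-/-, and 173 and 172 for Tfam+/-Zbp1-/-, in the same genotype order as Col10a1, and rose by 1.90 ± 0.18 (adjusted p = 0.00369). Lum, encoding the fibril-spacing proteoglycan lumican, rose by 1.80 ± 0.30 (adjusted p = 0.0209). Loxl2, a lysyl oxidase that crosslinks collagen and type IV collagen in particular, was at 13814 and 13846 for WT, 16078 and 15176 for Tfam+/-, 12237 and 12629 for Zbp1-/-, and 7389.8 and 7267 for Tfam+/-Zbp1-/-. It changed by -1.09 ± 0.08 (adjusted p = 0.00251) in that comparison, by -0.76 ± 0.08 (adjusted p = 0.0351) against Zbp1-/-, and was the 1 gene of the list with a called interaction, -0.94 ± 0.12 (adjusted p = 0.0299). Its libraries were lowest in Tfam+/-Zbp1-/-, the genotype in which Col4a1 and Col4a2 were also lowest.

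Against WT, Tfam+/-Zbp1-/- had 2 of the 55 genes higher and 3 lower (1.38% of all genes were called), with Itga11, the integrin subunit that binds fibrillar collagen, at -1.07 ± 0.15 (adjusted p = 0.0298). Adamts3 was higher there by 1.19 ± 0.18 (adjusted p = 0.0356), and Tll1 differed by -0.97 ± 0.14 (adjusted p = 0.0331). Against Zbp1-/- 2 fell (0.415% of all genes were called), Prelp (-0.93 ± 0.13 (adjusted p = 0.0478)) and Loxl2. No gene of the list was called by limma with all 8 libraries in Tfam+/- against WT, where 5 of 55 had an unadjusted p under 0.05, beside 8.74% of all genes. The shared term called 22 of the list there, beside 15.6% of all genes. Of the 19 tested genes for chain modification and folding, such as the prolyl hydroxylases and Serpinh1, none was called in any comparison by limma with all 8 libraries and no shared term, where 0 to 4 had an unadjusted p under 0.05 (8.74% to 20.8% of all genes), and their medians lay between -0.15 and 0.25. With the shared term 6 to 16 of the 19 were called, the most in Tfam+/-Zbp1-/- against Tfam+/-, where 45.6% of all genes were.

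Genes most like Col26a1 in pattern, by Pearson's r of log2 values over the 8 libraries, were Cyp2j9 (r = 0.99), Ctnna2 (r = 0.99) and Col6a4 (r = 0.99). With 8 libraries of 4 genotypes these correlations are a description of levels that share the same libraries. Ctnna2, a neuronal catenin, was at 107 and 120.3 for WT, 119 and 123 for Tfam+/-, 299.8 and 309 for Zbp1-/-, and 172 and 160.2 for Tfam+/-Zbp1-/-, highest in Zbp1-/- and intermediate in Tfam+/-Zbp1-/-.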

How the data were processed

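RNA sequencing libraries, 8 in all, were analysed as 4 genotypes of 2, grouped by title. Reads were aligned by STAR (version 2.6.1a, per the submitters' processing notes, which also name Salmon) to mm10 with RefSeq genes in BaseSpace, per the series' design text. The deposited table holds normalized counts made by the authors, treated here as a signal because they are not whole numbers. How they were scaled and counted is not stated in the labels. Whole reads could not be recovered: 22.2% to 35.0% of values up to 20 reads lay within 0.01 of a whole number. Counting intervals were therefore not given and no count test of genotypes was run. The chi-square comparison of libraries with counting noise took the commonest nonzero value of each library as the value of a read. Its results are approximate for that reason.

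From these values, limma 3.58.1 in R 4.3.3 was fitted to log2(value + 1) of all 13267 genes with a mean of at least 10, with all 8 libraries in 1 fit and a mean-variance trend. Its two-sided p-values were adjusted by Benjamini-Hochberg over all genes, at 0.05. The fit was also run on simulated data with independent libraries, the same spread in every genotype and no shared shift. That simulation cannot tell how calls behave under the unequal spreads and the shared shift of these data. An exact permutation test of 2 against 2 libraries cannot go below p = 0.333. GC content, exon lengths and exon overlaps came from GENCODE M21, coordinates and promoters from RefSeq (GRCm38.p6). The collagen genes, their classes, the lists of pathway and marker genes and the settings were chosen with earlier results of these data known; GC correction and the counting of close pairs as 1 sample were added after seeing the data. Values in every library are given for genes called in any comparison, the 2 most abundant of each class, and genes whose groups did not overlap and differed by at least 1 on the log2 scale. Of the pathway genes, the 3 called with the largest change per comparison are named. The 3 genes most like the collagen gene with the largest called change are named as well.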

Additional observations from a re-analysis of the deposited data

Results flagged for a closer look

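Col10a1 differed in its response between Tfam backgrounds by the test of the interaction itself (limma across all genes). The log2 change that went with loss of Zbp1 was 2.16 in Tfam+/- cells and 0.81 in Tfam wild-type cells, an interaction of 1.35 ± 0.14 (adjusted p = 0.0204). All 4 libraries lacking Zbp1 lay above all 4 that had it. The interaction ranged from 1.30 to 1.40 when 1 library was left out, and 5 of these 8 fits lost the call.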

How the results depend on the processing

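Counts of collagen genes called are given for Tfam+/- and then Zbp1-/- against WT, for Tfam+/-Zbp1-/- set against WT, Tfam+/- and Zbp1-/- in turn, and last for the interaction. With all 8 libraries they were 1, 5, 1, 6, 2 and 1. The term shared by Tfam+/- replicate 1 and Zbp1-/- replicate 2 gave 17, 29, 27, 29, 27 and 16, and leaving both of these libraries out gave 17, 29, 27, 29, 24 and 18; the remaining single Tfam+/- and Zbp1-/- library was then assumed to vary like the other groups. Correction for GC content gave 8, 13, 9, 24, 12 and 7. Counting the close pairs as 1 sample gave 0 in all 6, and both changes together gave 0, 0, 0, 3, 0 and 0. These last 3 settings were chosen after seeing the data. Without the filter on low values there were 0, 3, 1, 5, 1 and 1, with TMM scaling 1, 3, 1, 5, 2 and 1, and with a pseudocount of 5 there were 1, 6, 1, 5, 2 and 1. Leaving out 1 library gave 0 to 0, 0 to 8, 0 to 1, 1 to 7, 0 to 4 and 0 to 1. Under each of these settings 30 collagen changes were recomputed: those called, and those of at least 1 in size whose libraries did not overlap. None changed sign. Where libraries do not overlap, leaving out 1 library or both shifted libraries, or changing the pseudocount, cannot reverse a sign. For these settings that outcome was fixed by the selection. Dropping the low-value filter, counting the close pairs as 1 sample or adding a term for replicate number leaves the size of each change as it was. Those settings could not change a sign either. Smaller changes given in the text were not recomputed under all of the settings. The replicate numbers do not pair the libraries: deviations of same-numbered libraries correlated at -0.70 to 0.06 between genotypes. A replicate block gave 0, 0, 1, 3, 0 and 0 calls. For the fits without the low-value filter, with TMM scaling, the larger pseudocount, a library left out or the replicate block, shares of all genes called were not worked out. Their counts alone do not tell a collagen change from one of the whole table. The count test of genotypes on recovered reads was not run. For genes near the minimum of 10, such as Col9a1 and Col26a1, the few reads behind each value limit the precision. The cause of the differences between settings was not tested.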
